A study of Homo sapiens with 15 samples.

Results

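The STEAP genes STEAP1, STEAP2, STEAP3 and STEAP4 encode the STEAP family of metalloreductases, and described here are the chromatin loops at their promoters in prostate cancer cells given androgen. A loop belonged to a gene if a 1 kb anchor of it reached within 2.5 kb of the start of the canonical transcript, and each anchor pair counted once. Of 505995 loops, 112 met this rule, 15 at STEAP1, 83 at STEAP2, 12 at STEAP3 and 2 at STEAP4.

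LNCaP cells, an established line from an androgen-responsive prostate cancer, were kept in charcoal-stripped serum and then given the androgen dihydrotestosterone (DHT) at 10 nM and collected after 30 m, after 4 h, after 16 h and after 72 h, with ethanol vehicle as the 0 m time point. HiChIP joins DNA ends that lie close together in fixed nuclei and enriches the joined fragments for a histone mark, here H3K27ac (active promoters and enhancers) in 10 samples, 2 per time point, and H3K4me3 (active promoters) in 5 samples, 1 per time point. The deposited contact frequency is a count of read pairs per loop that the authors scaled across the time course of each mark. Each loop has 1 such value per table, so replicate error cannot be given, and it is not stated whether both H3K27ac samples of a time point entered it. Over all loops, the H3K27ac tables held 2475168 to 4308555 read pairs and those of H3K4me3 from 2153262 at 30 m to 10675614 at 4 h, and the 95% intervals below come from read pairs and cover counting error only.

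STEAP proteins are membrane enzymes that carry electrons across a membrane to reduce iron and copper, so that transporters can take the metals up. STEAP1 lacks the NADPH-binding domain of the other members and is best known as a surface antigen of prostate cancer cells, while STEAP2 is likewise abundant in prostate. STEAP3 reduces iron released from transferrin in endosomes, and STEAP4 is studied mostly in adipose tissue and inflammation.

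Promoters of luminal prostate genes carried strong contact in these cells. At 0 m the summed H3K27ac contact was 143 at KLK3, 65.5 at KLK2, 106 at TMPRSS2, 242 at FOXA1 and 241 at HOXB13. The promoters of the basal genes TP63, KRT5 and KRT14 and of the blood gene PTPRC had 0 loops. The blood gene CD3E had 5 loops with 8.82, and the liver genes ALB and APOA1 had 2 and 15 loops with 1.18 and 23.8. Contact at a promoter is not expression, and the presence of other cells was not tested beyond these markers.

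STEAP1 and STEAP2 lie side by side on chromosome 7, both read on the plus strand, with starts 57271 bp apart, STEAP4 lies 1847574 bp from STEAP1 on the minus strand of the same chromosome, and STEAP3 is on chromosome 2. Coordinates are those of GRCh37. The 250 bases before each start are printed 5′ to 3′ on the strand of the gene, with CG dinucleotides in capitals, because these are the promoters from which the loops were counted.
STEAP1 promoter, chr7:89783533-89783782, plus strand: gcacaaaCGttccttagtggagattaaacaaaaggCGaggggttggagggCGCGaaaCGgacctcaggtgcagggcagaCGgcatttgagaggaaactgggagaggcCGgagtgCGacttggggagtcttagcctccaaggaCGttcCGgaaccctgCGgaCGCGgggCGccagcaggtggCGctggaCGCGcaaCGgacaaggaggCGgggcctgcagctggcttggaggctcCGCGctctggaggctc
STEAP2 promoter, chr7:89840804-89841053, plus strand: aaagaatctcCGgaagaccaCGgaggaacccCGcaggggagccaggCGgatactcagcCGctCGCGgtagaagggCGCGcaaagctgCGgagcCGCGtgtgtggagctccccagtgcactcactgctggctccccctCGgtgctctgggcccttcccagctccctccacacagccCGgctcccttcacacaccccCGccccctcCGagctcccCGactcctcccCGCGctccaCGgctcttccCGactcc
STEAP3 promoter, chr2:119981160-119981409, plus strand: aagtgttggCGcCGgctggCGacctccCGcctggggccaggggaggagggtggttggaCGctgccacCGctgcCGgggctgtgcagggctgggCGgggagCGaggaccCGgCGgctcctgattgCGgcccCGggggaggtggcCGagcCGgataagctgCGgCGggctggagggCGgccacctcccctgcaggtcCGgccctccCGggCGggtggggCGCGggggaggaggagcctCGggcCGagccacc
STEAP4 promoter, chr7:87936210-87936459, minus strand: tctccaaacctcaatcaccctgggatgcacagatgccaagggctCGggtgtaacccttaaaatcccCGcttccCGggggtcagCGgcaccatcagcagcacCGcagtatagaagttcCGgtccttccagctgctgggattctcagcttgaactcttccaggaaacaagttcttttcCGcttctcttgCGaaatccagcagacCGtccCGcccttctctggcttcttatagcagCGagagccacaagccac
The promoters of STEAP1, STEAP2 and STEAP3 have 21, 21 and 25 CG dinucleotides, and that of STEAP4 has 11. Their GC content is 64.4%, 69.6% and 78.4% against 55.6% in STEAP4, above 53.3%, 69.9%, 92.0% and 28.0% of 19869 coding promoters, whose median is 63.2%. On either strand, none of the 4 windows holds AGAACA (the half-site of the androgen response element), the inverted repeat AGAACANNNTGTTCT with 1 base of each arm free, or the forkhead core TGTTTAC. These motifs are present in 8.94%, 0.508% and 2.06% of coding promoter windows of that length. The 1 kb loop anchors of these promoters lie outside the printed windows. That of STEAP1, chr7:89782001-89783000, holds 1 forkhead core, as 14.5% of all loop anchors hold that motif. Those of STEAP2, STEAP3 and STEAP4 hold no match of these motifs.

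STEAP2 stood far above the other members in H3K27ac contact. Averaged over the 5 time points its summed contact was 299.7, which ranks 23 among 16259 coding promoters with loops, where the median promoter had 20.7. In H3K4me3 it was 88.0, rank 3894, against a median of 37.9. Its H3K27ac contact was 3.41 times its H3K4me3 contact, a ratio above that of 96.9% of promoters.

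STEAP1 came next in H3K27ac, with 31.6, above 62.3% of promoters, and had 9.66 in H3K4me3, above 28.6%. Its ratio of the marks was 3.28, close to that of STEAP2. STEAP3 had 8.89 in H3K27ac and 12.6 in H3K4me3, and STEAP4 had 1.92 and 1.94. In H3K27ac the order STEAP2, STEAP1, STEAP3, STEAP4 held at all 5 time points with intervals that did not overlap between neighbours. In H3K4me3 the intervals of STEAP1 and STEAP3 overlapped at 0 m, 30 m, 16 h and 72 h.

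**Figure D1:**
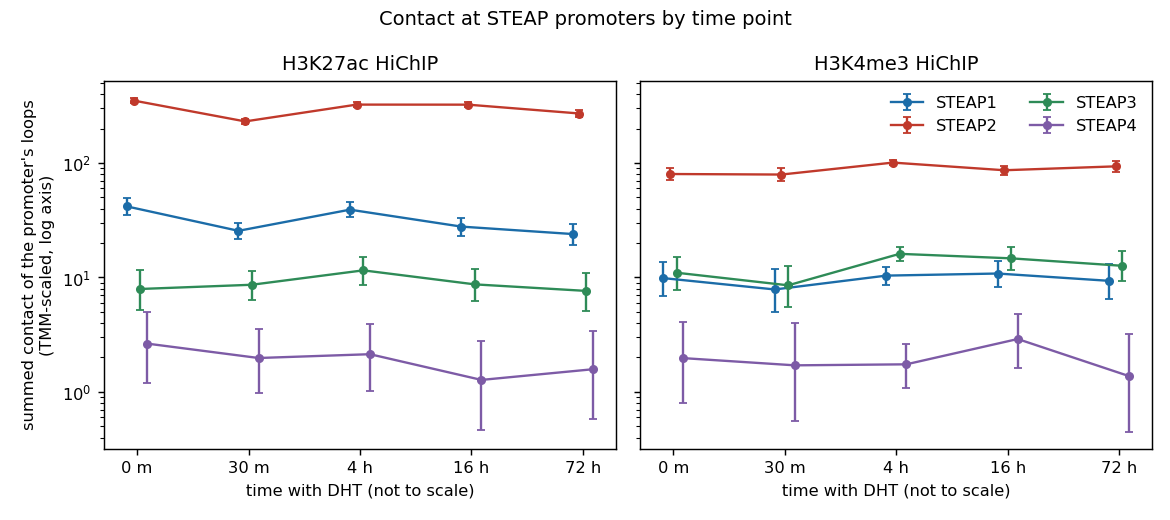
Summed contact of the loops of each STEAP promoter (log axis, contact scaled by the authors) by time with DHT, H3K27ac at left and H3K4me3 at right. Points are the single deposited values summed over loops and bars are 95% counting intervals; H3K27ac contact at STEAP2 ran from 231 to 351 and at STEAP4 from 1.27 to 2.64.

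H3K27ac contact at STEAP1 and STEAP2 fell within 30 m of DHT, was closer to the starting level at 4 h, and was again lower at 72 h. STEAP1, the surface antigen, had a summed H3K27ac contact of 41.7 (35.1 to 49.2) at 0 m, 25.6 (21.5 to 30.1) at 30 m, 39.1 (33.6 to 45.2) at 4 h, 27.8 (23.3 to 33.0) at 16 h and 23.9 (19.3 to 29.4) at 72 h. These rest on 142, 142, 183, 131 and 91 read pairs. The intervals at 30 m, 16 h and 72 h lie wholly below that at 0 m, and the interval at 4 h overlaps it.

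STEAP2 had 351 (331 to 371) at 0 m, 231 (218 to 244) at 30 m, 323 (307 to 340) at 4 h, 323 (307 to 340) at 16 h and 271 (254 to 288) at 72 h, from 1194, 1282, 1514, 1522 and 1028 read pairs. It was lowest at 30 m and next lowest at 72 h.

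The log2 change of STEAP1 from 0 m was -0.71 (-1.05 to -0.36) at 30 m, -0.09 (-0.42 to 0.23) at 4 h, -0.59 (-0.94 to -0.23) at 16 h and -0.80 (-1.20 to -0.41) at 72 h. That of STEAP2 was -0.60 (-0.72 to -0.49) at 30 m and -0.38 (-0.50 to -0.25) at 72 h. All of these share the 0 m table. The STEAP2 changes at 4 h and 16 h were both -0.12 (-0.23 to -0.01), and with only the loops called for H3K27ac or only those averaging a contact of 1 or more their intervals included 0, as did that at 4 h without the strongest loop. Over all loops the H3K27ac contact changed by 0.09 at 30 m, by 0.07 at 4 h, by 0.25 at 16 h and by 0.17 at 72 h.

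Against the median coding promoter, which changed by 0.26, 0.04, 0.14 and 0.17 at the same times, STEAP1 differed on the log2 scale by -0.97 at 30 m, -0.13 after 4 h, -0.72 after 16 h and -0.97 after 72 h. For STEAP2 the differences were -0.86, -0.16, -0.26 and -0.54. Few promoters changed in the same direction to that extent at 30 m, when 2.102% of 11893 lay below STEAP1 and 3.33% below STEAP2. At 4 h 30.0% lay below STEAP1 and 26.7% below STEAP2, at 16 h 8.28% and 30.7%, and at 72 h 2.24% and 12.1%. Scaling every table to the same total moves the median promoter at 16 h by -0.25 for H3K27ac and -0.14 for H3K4me3. Under it STEAP1 and STEAP2 were lower in H3K27ac at 30 m, 16 h and 72 h as well.

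**Figure D2:**
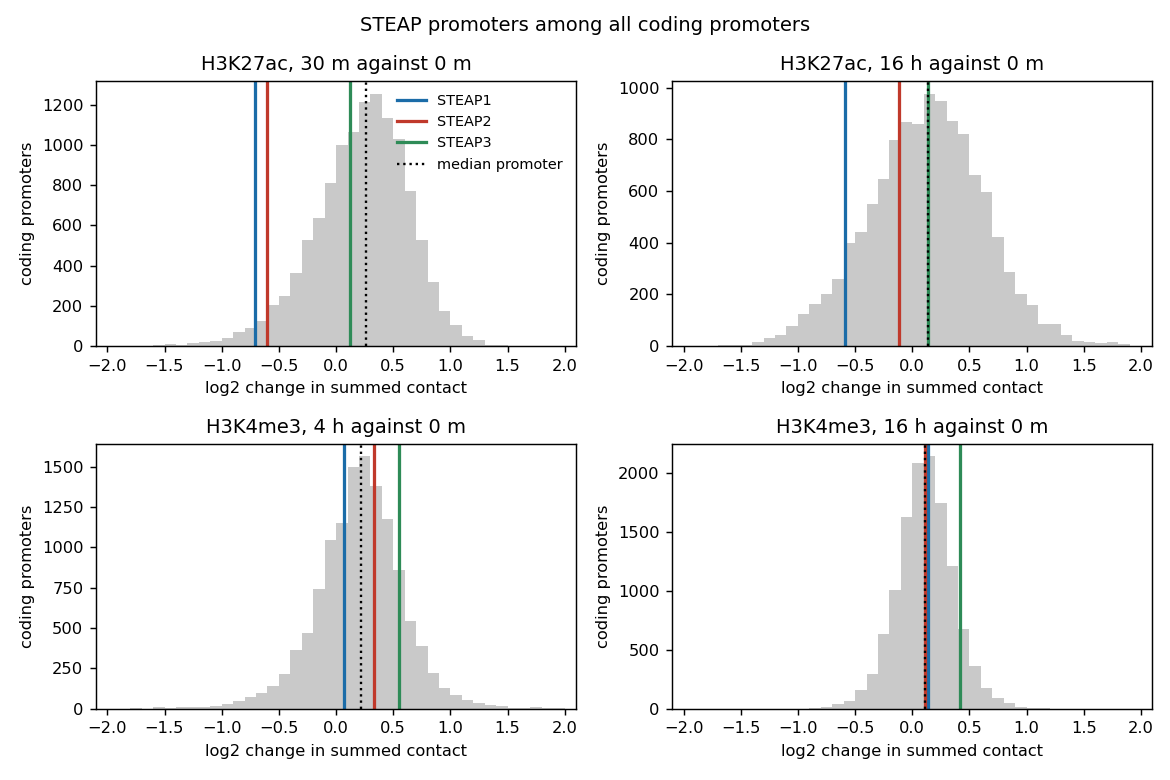
Log2 change in summed contact from 0 m over coding promoters with at least 20 read pairs at both times (grey counts), with STEAP1, STEAP2 and STEAP3 as lines and the median promoter dotted. In H3K27ac at 30 m STEAP1 (-0.71) and STEAP2 (-0.60) sit in the lower tail, and in H3K4me3 at 16 h STEAP1 and STEAP2 sit at the median.

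STEAP3, the endosomal ferrireductase, had H3K27ac contacts of 7.93 (5.23 to 11.5), 8.64 (6.37 to 11.5), 11.5 (8.67 to 15.1), 8.70 (6.25 to 11.8) and 7.63 (5.11 to 11.0) from 0 m to 72 h, from 27 to 54 read pairs. A change was not detectable at this depth at any of the 4 later times, the interval at 16 h running from -0.60 to 0.89. STEAP4 had 2.64 (1.21 to 5.02), 1.98, 2.14, 1.27 (0.467 to 2.77) and 1.58, from 6 to 11 read pairs, and changes there were not detectable either.

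In H3K4me3 a fall was not detectable at this depth for any member. STEAP2 had 80.1 (71.1 to 89.97) at 0 m, 79.2 (69.4 to 90.1) at 30 m, 101 (95.3 to 106) at 4 h, 86.4 (78.6 to 94.8) at 16 h and 93.5 (83.8 to 104) at 72 h. Its rise at 4 h was 0.33 (0.14 to 0.52), beside 0.22 over all loops and at the median promoter, and with every table scaled to the same total it was 0.11 (-0.08 to 0.30). The other changes of STEAP2 were -0.02, 0.11 and 0.22 at 30 m, 16 h and 72 h, with intervals that included 0. At 72 h the median promoter changed by -0.16, and with equal totals STEAP2 had 0.35 (0.12 to 0.58), an interval above 0.

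STEAP3 had H3K4me3 contacts of 11.0, 8.54, 16.1, 14.7 and 12.6 over the time course. It rose at 4 h by 0.55 (0.05 to 1.08), an interval that includes 0 with equal totals (0.32, -0.18 to 0.86). STEAP1 had 9.87, 7.86, 10.4, 10.8 and 9.35, with 23 to 131 read pairs, and STEAP4 had 1.97, 1.71, 1.74, 2.90 and 1.37. Changes of these 2 genes in H3K4me3 were not detectable at this depth.

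With a limit of 1.5-fold and at least 20 read pairs at both times, STEAP1, STEAP2 and STEAP3 could be counted in every comparison and STEAP4 in none. In H3K27ac STEAP1 and STEAP2 were lower at 30 m, where 17.9% of promoters were higher and 3.61% lower. None of the members passed the limit at 4 h, where 2.91% were higher and 1.24% lower. At 16 h STEAP1 was lower with a ratio of 0.667 to 0 m, at the limit itself, where 17.6% were higher and 8.29% lower, shares that were 7.28% and 17.96% with equal totals. STEAP1 was also lower at 72 h, where 17.2% were higher and 5.51% lower. With the wider overlap of 5 kb bins STEAP1 had -0.54 (-0.75 to -0.33) at 30 m and -0.35 (-0.56 to -0.14) at 16 h, and neither passed the limit.

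In H3K4me3 none of the members passed the limit at any time. The shares of all promoters that were higher and lower were 0.922% and 1.16% at 30 m, 13.4% and 2.55% at 4 h, 3.15% and 0.619% at 16 h, and 1.25% and 5.83% at 72 h.

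The H3K27ac loops of STEAP1 were set against those of STEAP2 at each time. STEAP1 had 11.9 read pairs per 100 of STEAP2 at 0 m, 11.1 after 30 m of DHT, 12.1 after 4 h, 8.61 after 16 h and 8.85 after 72 h, a comparison within each table that no scaling touches. Relative to 0 m the ratio was 0.931 (0.723 to 1.20) at 30 m and 1.02 (0.801 to 1.29) at 4 h, then 0.724 (0.559 to 0.936) at 16 h and 0.744 (0.558 to 0.989) at 72 h. A difference between the genes in their change was thus not detectable at 30 m and 4 h, while at 16 h and 72 h STEAP1 was further down than STEAP2. With the 5 kb bin around each anchor in place of the anchor, which gives STEAP1 27 loops, the ratios of 0.851 (0.721 to 1.005) and 0.843 (0.700 to 1.0144) at 16 h and 72 h have intervals that reach 1. In H3K4me3 the read pairs of STEAP1 per 100 of STEAP2 were 12.3, 9.91, 10.3, 12.5 and 10.0, with overlapping intervals.

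**Figure D3:**
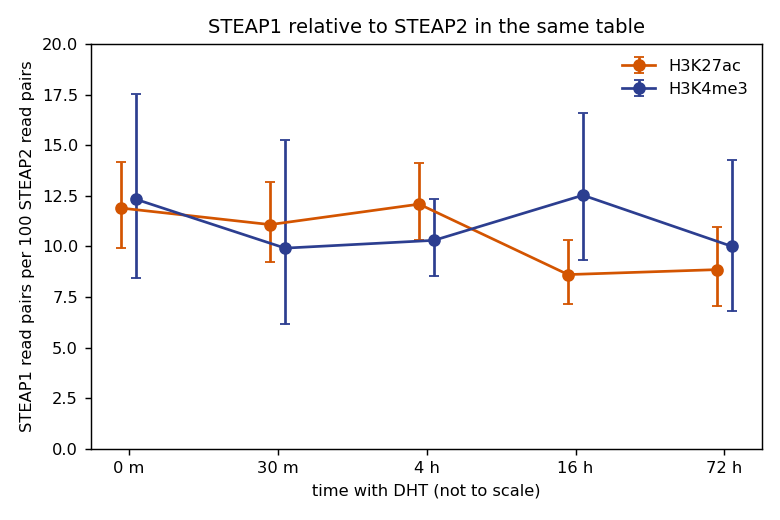
Read pairs at the STEAP1 promoter per 100 at the STEAP2 promoter in the same table, by time with DHT, for both marks. Bars are 95% intervals of the ratio; the H3K27ac values at 16 h and 72 h, 8.61 and 8.85, are the lowest of that mark.

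STEAP2 had more loops than 97.2% of the coding promoters with loops, and they were long. Of its 83 loops 64 were called for H3K27ac alone, 11 for both marks and 8 for H3K4me3 alone, with lengths from 5000 to 2835000 bp and a median of 550000 bp. A length of 100 kb or more was found in 71 of them and in 330640 of all 505995 loops. Of all loops 68822 were called for both marks, and the shares called for 1 mark alone are not given here. STEAP1 had 7 loops called for H3K27ac alone and 8 for H3K4me3 alone, with a median of 195000 bp. STEAP3 had 1 loop called for H3K27ac and 11 for H3K4me3, with a median of 82500 bp, and both STEAP4 loops were called for H3K4me3. Each promoter window held a single loop anchor, chr7:89782001-89783000 for STEAP1, chr7:89842001-89843000 for STEAP2, chr2:119982001-119983000 for STEAP3 and chr7:87937001-87938000 for STEAP4.

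The strongest STEAP2 loops were short and stayed inside its own gene or reached that of STEAP1. In order of mean H3K27ac contact they led to chr7:89837001-89838000, 5000 bp away and 3.6 kb upstream of the start, to chr7:89857001-89858000, 15000 bp downstream, and to chr7:89787001-89788000, 55000 bp away in an intron of STEAP1. The first anchor lies in an intron of longer STEAP2 transcripts and in the noncoding gene STEAP2-AS1, and the second in an intron of STEAP2.

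The loop of 5000 bp had H3K27ac contacts of 62.0, 47.3, 57.9, 74.3 and 62.9 in the order of the time points, and it was the strongest of STEAP2 at all 5. The loop of 15000 bp had 46.7, 33.6, 52.6, 56.7 and 32.4, and that into STEAP1 had 22.6, 16.2, 23.5, 24.2 and 17.6. All 3 were lower at 30 m than at 0 m and highest at 16 h. At 16 h the log2 change of the first was 0.26 (0.01 to 0.51), beside 0.69 over all loops of 5 kb, and with every table scaled to the same total it was 0.01 (-0.24 to 0.27). The others had 0.28 (-0.01 to 0.57) and 0.10 (-0.33 to 0.53). With a mean of 20.8, the loop into STEAP1 was stronger than 99.97% of the 7607 loops of its length, whose mean was 1.46.

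In H3K4me3 the loop of 5000 bp had 11.3, 9.56, 20.8, 12.0 and 12.4, highest at 4 h. The loop of 15000 bp had 5.92, 10.6, 11.6, 12.4 and 10.4, and rose at 16 h by 1.06 (0.33 to 1.85). Another strong partner, at 30000 bp, was the promoter of CFAP69, a cilium and flagellum gene, with a mean of 16.7 in H3K27ac and 8.38 in H3K4me3. Among loops with at least 30 read pairs at 0 m or 16 h, the largest decrease at 16 h in H3K27ac was that of the loop to chr7:89802001-89803000 in an intron of STEAP2, with -0.67 (-1.26 to -0.08), and in H3K4me3 that of the loop to chr7:89877001-89878000 in CFAP69, with -0.38 (-1.10 to 0.36). Loops with fewer read pairs had larger ones, in H3K27ac to chr7:90057001-90058000 with -1.56 (-2.98 to -0.27) and to chr7:90182001-90183000 with -3.05 (-8.58 to -0.01), and in H3K4me3 to chr7:89932001-89933000 with -3.13 (-6.33 to -0.96), from 12 read pairs at 0 m and 2 at 16 h.

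**Figure D4:**
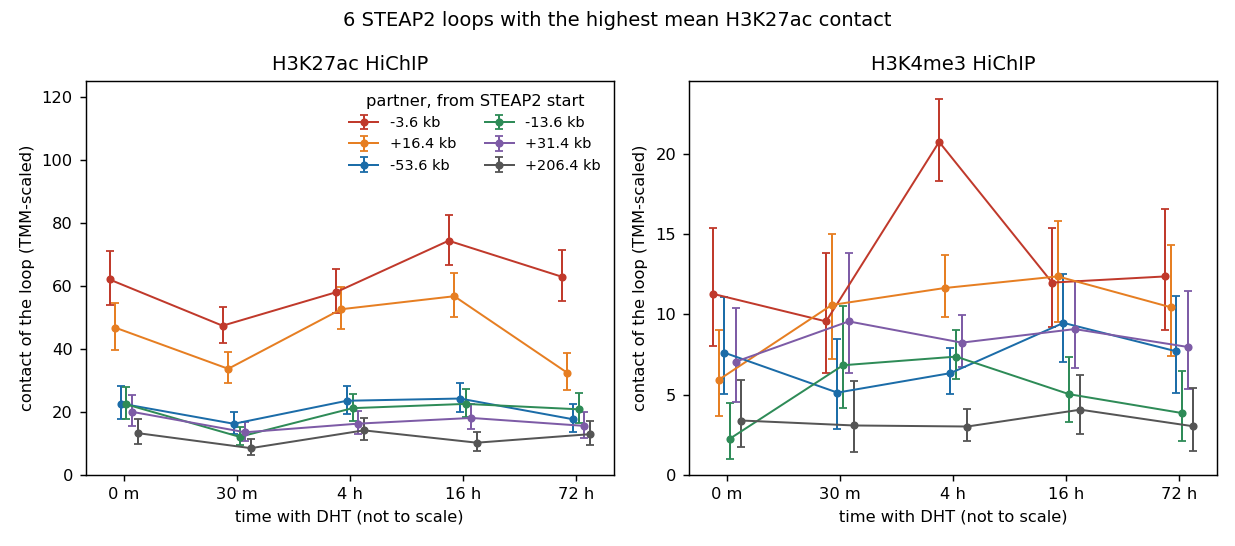
Contact of the 6 STEAP2 loops with the highest mean H3K27ac contact by time with DHT, named by the distance of the partner anchor from the STEAP2 start (kb, downstream positive). Bars are 95% counting intervals; the loop to the anchor 3.6 kb upstream leads in H3K27ac at every time, from 47.3 to 74.3.

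At 30 m the fall at STEAP2 ran through its loops. Of 83 loops 65 had a lower H3K27ac contact than at 0 m and 18 a higher one. Of all loops of the series 45.7% were lower and 47.1% higher. Of the 83 loops 71 were of 100 kb or more, and 53 of these were lower, where 45.6% of all such loops were. The log2 change at 30 m was -0.49 (-0.68 to -0.31) for the loops of STEAP2 under 20 kb, -0.74 (-0.94 to -0.54) from 20 to 100 kb and -0.60 (-0.82 to -0.38) beyond, beside 0.26, 0.05 and -0.14 for all loops. At 16 h the change differed by length. The 3 loops under 20 kb went from 131 to 153, a log2 change of 0.23 (0.06 to 0.40) that is -0.02 (-0.19 to 0.15) with equal totals. The 9 loops of 20 to 100 kb fell from 124 to 98.5, a log2 change of -0.33 (-0.52 to -0.13), and the 71 longer loops fell from 96.1 to 71.1, a change of -0.43 (-0.66 to -0.21). All loops of the series also differed by length at 16 h, with 0.69 at 5 kb, 0.17 from 10 to 20 kb, 0.04 from 20 to 100 kb, -0.08 from 100 to 300 kb and -0.12 beyond. In H3K27ac read pairs, where no scaling enters, the loops of STEAP2 under 20 kb relative to its longer ones changed by a factor of 1.52 (1.296 to 1.78) at 16 h, beside 1.49 for all loops. In H3K4me3 that factor was 1.61 (1.08 to 2.41) at 30 m, 2.03 (1.504 to 2.77) after 4 h, 1.60 (1.14 to 2.28) after 16 h and 1.24 (0.856 to 1.81) after 72 h, beside 1.03, 1.05, 1.06 and 0.881 for all loops.

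At STEAP1 the fall at 16 h was read by length too. Its single loop under 100 kb, of 5000 bp to chr7:89787001-89788000 in its own intron, had H3K27ac contacts of 9.40, 7.20, 10.7, 9.98 and 8.16, and changed at 16 h by 0.09 (-0.59 to 0.78). Its 14 longer loops had 32.3, 18.4, 28.4, 17.8 and 15.8, and their log2 change at 16 h was -0.86 (-1.29 to -0.44). Relative to the longer loops the short one changed by a factor of 1.92 (1.09 to 3.40) in H3K27ac read pairs, an interval that includes the 1.49 of all loops. Among the longer loops, that of 265000 bp to chr7:90047001-90048000 in an intron of CLDN12, a claudin gene, had 5.29, 4.32, 4.70, 1.91 and 3.68 with a log2 change of -1.47 (-2.81 to -0.24) at 16 h.

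In H3K27ac the strongest loop of STEAP1 and of STEAP2, of 5000 bp in both, held a larger share of the contact at 16 h and 72 h than at 0 m, as it did at 74.9% and 69.6% of promoters with at least 20 read pairs. At STEAP1 the strongest loop held 22.5% of the summed contact at 0 m, 28.2% after 30 m, 27.3% after 4 h, 35.9% after 16 h and 34.1% after 72 h. At STEAP2 it held 17.7%, 20.51%, 17.9%, 23.0% and 23.2%. The Gini index, 0 where all loops are equal, was 0.421 at 0 m and 0.509 at 16 h for STEAP1, and 0.753 and 0.802 for STEAP2. The share went up at 16 h by 13.3 points at STEAP1, 5.32 at STEAP2 and 5.69 at STEAP3, beside a median of 4.76. The share is that of whichever loop was strongest at each time, at all promoters too. At STEAP3 it went from 33.3% at 0 m to 58.6% at 72 h in H3K27ac, from 27 and 29 read pairs. These were different loops, that of 5000 bp at 0 m, with 2.64, and that of 15000 bp at 72 h, with 4.47. In H3K4me3 the share at STEAP3 went from 51.3% to 28.3%, from 39 and 46 read pairs, with the loop of 5000 bp strongest at both times. These changes of STEAP3 at 72 h were 25.3 and -23.0 points, beside medians of 3.45 and -1.83. In H3K4me3 the share at STEAP1 was 28.6% at 0 m, 47.8% after 30 m, 28.2% after 4 h, 21.4% after 16 h and 32.4% after 72 h. Its change from 0 m was -7.14 points at 16 h and 3.78 at 72 h, beside medians of 1.13 and -1.83. The Gini index of STEAP1 in H3K4me3 was 0.560, 0.707, 0.402, 0.438 and 0.529 in the order of the time points. At STEAP4 the H3K27ac share was 100% at 0 m and 66.7% at 72 h, from 9 and 6 read pairs.

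STEAP1 shared most of its partner anchors with STEAP2, which had many more. Of the partner anchors, 11 were common to both, the STEAP1 intron among them, 73.3% of the 15 of STEAP1 and 13.3% of the 83 of STEAP2. To these 11 anchors STEAP1 had an H3K27ac contact of 35.8 at 0 m and STEAP2 97.0, and at 16 h 25.1 and 79.2. In read pairs to these anchors STEAP1 had 36.97 (29.8 to 45.6) per 100 of STEAP2 at 0 m and 31.6 (25.5 to 39.0) at 16 h, intervals that overlap. The strongest common distal partner was the CLDN12 intron at chr7:90047001-90048000, with a mean of 3.98 from STEAP1 and 11.8 from STEAP2, above 99.4% and 99.9% of loops of the same lengths. In the direction of reading, 14 of the 15 STEAP1 loops and 52 of the 83 STEAP2 loops ran downstream. No loop joined the promoter anchors of 2 STEAP genes. With the 5 kb bin in place of the anchor, the STEAP2 loop of 55000 bp into the STEAP1 intron also counted to STEAP1. The STEAP2 loop of 1910000 bp to chr7:87932001-87933000 then counted to STEAP4 as well, so under that setting both joined 2 STEAP promoters.

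**Figure D5:**
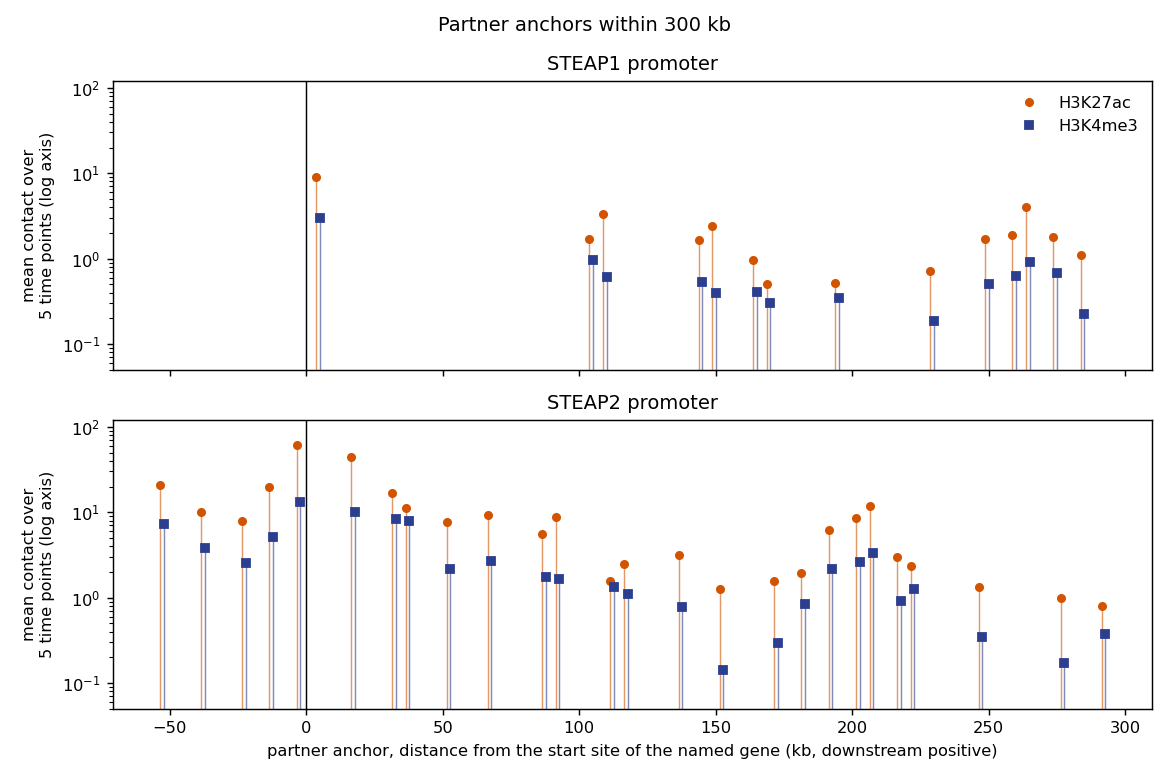
Mean contact over the 5 time points (log axis) of the partner anchors within 300 kb of the STEAP1 and STEAP2 starts, by distance from the start of the named gene (kb, downstream positive). STEAP1 has 1 partner near its start and the others beyond 100 kb, while STEAP2 has partners on both sides with the strongest at 3.6 kb upstream.

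Several partner anchors were promoters of other coding genes. Besides CFAP69, STEAP2 met the promoters of CLDN12 (mean H3K27ac contact 6.18), GTPBP10 (3.17), FAM237B (1.57) and CDK14 (1.28), and STEAP1 met those of CLDN12 (1.72), GTPBP10 (0.517) and FAM237B (0.508). Introns of coding genes took 77.7% of the H3K27ac contact of STEAP2 and 60.9% of that of STEAP1. At STEAP3 anchors outside coding genes took 48.1% of the H3K27ac and 75.4% of the H3K4me3 contact.

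STEAP3 had its strongest H3K27ac loop to chr2:119997001-119998000, 15000 bp downstream at an exon of STEAP3, with 2.06, 3.24, 3.63, 3.40 and 4.47. Its strongest H3K4me3 loop went 5000 bp upstream to chr2:119977001-119978000, where no coding gene lies, with 5.64, 4.10, 7.05, 8.70 and 3.57, and the change at 16 h was 0.62 (-0.16 to 1.46). STEAP4 had a loop of 5000 bp into its own intron at chr7:87932001-87933000, with H3K27ac contacts of 2.64, 1.98, 2.14, 1.27 and 1.05, and one of 90000 bp to the promoter of SRI, which encodes the calcium-binding protein sorcin. The SRI loop had 0 read pairs at 4 of the 5 H3K27ac time points, at which 3 read pairs would be a contact of 0.540 to 0.882.

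The partner anchor of the strongest STEAP2 loop holds matches of the inverted repeat and of the forkhead core. Some matches of the motifs named above, in capitals, are printed from GRCh37 with 20 bases on either side, because these anchors stand for the strongest STEAP2 contacts. Not printed are a further half-site in the anchor 15000 bp downstream, and 1 half-site and 2 forkhead cores in the partner anchor in the STEAP1 intron.
Partner 3.6 kb upstream of the STEAP2 start, inverted repeat, chr7:89837831-89837885, plus strand: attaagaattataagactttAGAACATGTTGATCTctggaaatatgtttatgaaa
Same anchor, forkhead core, chr7:89837157-89837203, plus strand: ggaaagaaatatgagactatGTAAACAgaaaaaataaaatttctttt
Partner 15000 bp downstream, half-site, chr7:89857531-89857576, plus strand: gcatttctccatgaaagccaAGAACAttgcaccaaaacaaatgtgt
The inverted repeat in the first sequence has the base change T12A relative to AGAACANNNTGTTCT, given as the motif base, the position from 1 at the 5′ end of the 15 bases, and the base of the site. Of all 210061 loop anchors, 55.6% hold the half-site, 4.07% the inverted repeat with 1 base of each arm free, and 14.5% the forkhead core, while 0.515% hold the repeat with at most 1 base off in all, a stricter count made after this site was seen. Among the 83 partner anchors of STEAP2, 50 (60.2%) hold the half-site, 4 (4.82%) the repeat and 24 (28.9%) the forkhead core. For STEAP1 the counts are 6, 1 and 4 of 15, for STEAP3 7, 1 and 2 of 12, and for STEAP4 2, 0 and 0 of 2. Contacts were taken at a resolution of 5 kb, and an anchor is the middle 1 kb of such a bin. The rest of each bin was not searched, at promoter and partner anchors alike. A match describes letters only, and factor binding was not measured here.

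Other genes of iron and copper handling were taken as a list of 32, of which 30 had loops. In H3K27ac at 16 h 23 had enough read pairs, 5 were at least 1.5-fold higher and 0 lower, where 17.6% of all promoters were higher and 8.29% lower, with a median log2 change of 0.10 beside 0.14 over all promoters. The 5 were PCBP1 (71.4 to 132), an iron chaperone, ATOX1 (29.7 to 51.4), a copper chaperone, SLC31A2 (14.4 to 24.8), a copper transporter, NCOA4 (22.0 to 34.6), the receptor for autophagy of ferritin, and CP (5.88 to 12.5), the ferroxidase ceruloplasmin. With equal totals 2 were higher, PCBP1 and CP, and 3 were lower, among them FTH1, where 7.28% of all promoters were higher and 17.96% lower. In H3K4me3 24 had enough read pairs, 2 were higher, among them SLC39A8 (16.4 to 26.9), a metal importer, and 0 were lower, where 3.15% and 0.619% of all promoters were, with a median of 0.25 beside 0.11, and with equal totals 1 was higher. TFRC, the transferrin receptor, had 45.0 and 62.6 in H3K27ac at 0 m and 16 h, and FTH1, a ferritin subunit, had 140 and 103, neither past 1.5-fold as scaled by the authors.

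Over the 10 values of both marks, centred within each mark, the promoters with the time course most like that of STEAP1 were GNPDA1 (Pearson r 0.940), SPOPL (0.922) and TSPAN5 (0.916), out of 11084 with enough read pairs. For STEAP2 they were SGMS1 (0.917), PDE3B (0.908) and ARHGAP28 (0.897), and for STEAP3 SLC9A2 (0.928), HLCS (0.921) and INHBC (0.915). STEAP1 and STEAP2 had an r of 0.706 with each other. These values share their libraries and scaling, and the highest of many such coefficients are a description. STEAP4 had too few read pairs.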

How the data were processed

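HiChIP of H3K27ac and H3K4me3 had been done in LNCaP cells at 5 time points. The authors trimmed reads with Trim Galore 0.5.0, aligned and filtered them on hg19 with HiC-Pro 3.1.0, called loops with FitHiChIP and took contacts with Cooler. The deposited values are contact signal, read pairs per loop that the authors scaled by TMM among the 5 time points of a mark. Every value (100%) was an integer times a step, taken as 1 read pair, to within 0.01 of that step, and division gave the read pairs. The 10 tables list 574817 anchor pairs each, of which 68822 are in both loop sets and were counted once.

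Promoters were taken from Gencode release 44 lifted to GRCh37. Contacts were summed per promoter with exact Poisson intervals, and ratios have exact conditional binomial intervals. No test was run, since each group has 1 value. Promoters were counted as higher or lower at 1.5-fold with at least 20 read pairs at both times. The partner class of an anchor is a coding promoter first, then an exon, an intron or no coding gene.

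Named loops are, per gene and mark, the 3 with the highest mean contact, and those with the largest rise and fall at 16 h among loops with at least 30 read pairs at 0 m or 16 h. Like promoters are the 3 with the highest Pearson r, with at least 20 read pairs in each table and no loop in common. The promoter partners, the loop lengths and the shares of all loops and promoters shown were chosen after their values were seen. The members and lists were chosen with earlier results of these data known. Some genes of the lists and some sequences are not reported here. Alternatives varied the scaling, anchor overlap, promoter window, start sites, loop length, loop contact, loop set and strongest loop, and those for the ratio of STEAP1 to STEAP2, equal totals for loop lengths, named loops, neighbours and the iron and copper list, and neighbours without the loops shared with STEAP1 or STEAP2, were chosen after the data were seen. Python 3.11.15, numpy 2.4.6, pandas 2.3.3, scipy 1.17.1 and matplotlib 3.10.9 were used, and the steps were tested on simulated data.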

Additional observations from a re-analysis of the deposited data

How the results depend on the processing

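No paired analysis was possible because the tables used here hold no separate values for the H3K27ac samples and H3K4me3 had a single sample per time. Of 375 values under other settings 349 stayed within the counting interval or within 1.5 times the count and 25 moved outside it. In 1 a change whose interval excludes 0 turned sign, the STEAP2 loops under 20 kb in H3K27ac at 16 h, with -0.0192 under equal totals. Of the 32 log2 changes of whole promoters 9 had an interval that excludes 0, and their 72 alternatives had the same sign, while 24 of the 164 alternatives of the others changed sign. A value could not be computed for 20 alternatives at STEAP4, which has too few loops or read pairs for them, nor for FAM237B in H3K4me3 without the loops it shares with STEAP1 and STEAP2. With every table scaled to the same total, which shifts each later time by the change of all loops, STEAP2 in H3K27ac was -0.37 at 16 h and -0.55 at 72 h, and in H3K4me3 0.11 at 4 h. The same scaling gave 7.28% of promoters at least 1.5-fold higher and 17.96% lower in H3K27ac at 16 h, and 1.17% and 1.63% in H3K4me3. Of the iron and copper genes it gave 2 higher and 3 lower in H3K27ac and 1 higher in H3K4me3. With loops of at least 20 kb STEAP2 had -0.37 at 16 h and -0.51 at 72 h in H3K27ac and 0.0088 at 4 h in H3K4me3, since its loops under 20 kb had higher changes. With at least 5 read pairs in place of 20, 5.74% of promoters were higher and 2.13% lower in H3K4me3 at 16 h, as more weakly covered promoters enter. With the 5 kb bin in place of the anchor STEAP1 had 27 loops and STEAP4 had 5, as neighbouring anchors enter. The fall of STEAP1 in H3K27ac at 16 h ranged from -0.91 with the loops called for H3K27ac to -0.35 with the 5 kb bin. At 72 h the ratio of STEAP1 to STEAP2 was 0.758 (0.562 to 1.02) with loops of a mean contact of at least 1. Depth limits STEAP4, at 5 to 22 read pairs per table, and single long loops.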

Other observations

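Coding promoters downstream of STEAP1 and STEAP2 were read in H3K27ac at 16 h against 0 m. CFAP69 went from 113 to 95.3, a log2 change of -0.24 (-0.44 to -0.04), GTPBP10 from 22.3 to 16.1, with -0.47 (-0.95 to 0.01), and CLDN12 from 55.8 to 48.4, with -0.21 (-0.49 to 0.08). CDK14, a cyclin-dependent kinase gene 384581 bp from the STEAP2 start, had 67.3 and 87.5, a change of 0.38 (0.14 to 0.62) that is 0.13 (-0.11 to 0.37) with every table scaled to the same total, while under that scaling the values of the other 3 are -0.49, -0.72 and -0.45, with intervals below 0. Some loops of these promoters are also loops of STEAP1 or STEAP2, with 19.98 of the H3K27ac contact of CFAP69 at 0 m, 5.58 of that of GTPBP10 and 9.70 of that of CLDN12. Without them the changes, as scaled by the authors, were -0.26 (-0.48 to -0.04), -0.42 (-0.97 to 0.13) and -0.19 (-0.50 to 0.13), and that of CDK14 was 0.40 (0.16 to 0.64). In H3K4me3 CFAP69 rose from 96.2 to 122, by 0.34 (0.15 to 0.54). Near STEAP3, the anchors at the promoters of DBI and C2orf76 rose in H3K27ac from 38.8 to 61.4, by 0.66 (0.36 to 0.97), which is 0.41 with equal totals. TMEM177, 455367 bp from the STEAP3 start, rose by 0.79 (0.38 to 1.21), which is 0.54 with equal totals. The intervals of EN1, TMEM37 and CFAP221 included 0, as scaled by the authors, and STEAP3 itself had no detectable change.

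STEAP2 had 3 loops of 1910000 to 1940000 bp into the STEAP4 gene, with 14, 12 and 10 H3K27ac read pairs over all time points. The promoter anchor of SRI was a partner of both STEAP2 and STEAP4. The anchor in the STEAP1 intron, just outside the STEAP1 promoter window, had 13 loops with H3K27ac contacts of 71.7, 53.1, 78.0, 63.7 and 51.8 from 0 m to 72 h. Its log2 change at 30 m was -0.43 (-0.68 to -0.18), and at 16 h it was -0.17 (-0.42 to 0.08).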
